A study of Mus musculus with 39 samples.

Results

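The adenylyl cyclases are the enzymes that make cyclic AMP (cAMP) from ATP, and the genes described here are Adcy1 to Adcy10. They are the rows that carry these symbols in the deposited gene tables, and the family was chosen with earlier results of these data known. All 10 are among the 21561 Ensembl genes that both tables list.

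RNA-seq was made from the gubernaculum, the cord of muscle and mesenchyme that ties the testis to the scrotal floor, and from the testis of male C57BL/6J mice. Wild-type (WT) mice were compared with INSL3-KI mice, in which the coding sequence of cetacean INSL3 (minke whale, per the study's methods) stands in place of mouse Insl3 at its own locus under the mouse regulatory sequence, and with INSL3-KO mice, which lack Insl3. Gubernaculum of all 3 genotypes was collected at postnatal day 8 (P8), and at P23 only that of WT and INSL3-KI. Testis of all 3 genotypes was collected at P8 and P23, and at P40 only that of WT and INSL3-KI, which gives 13 groups of 3 biological replicates and 39 libraries. The mutants carry their alleles in the whole body, the testes of INSL3-KI mice were inguinal according to the study, and no INSL3-KO gubernaculum at P23 was analysed here.

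Libraries held between 29861447 and 45260372 counts, with a median of 36944626. The values stand in 2 tables with different gene models. The first covers 27 libraries (WT and INSL3-KI), the second the other 12 (INSL3-KO and the WT testes of P23), so that in any comparison across the tables the table and the genotype cannot be told apart. Insl3 was read in WT testis at P8 at 2922, 3524 and 2722 counts and in INSL3-KI testis at 33, 15 and 26. Reads were aligned to the mouse genome, which lacks the cetacean coding sequence, so INSL3-KI counts are not the level of the knocked-in gene. The study reported cetacean INSL3 in these mice by RT-PCR and Western blotting. The P8 testis libraries labelled INSL3-KO held 906, 804 and 613 Insl3 counts, which is below WT but not absent, whereas the P23 INSL3-KO testes held 0, 5 and 0 and the P8 INSL3-KO gubernacula held 0 in each library. The P8 testis libraries are therefore called by their label throughout. Rxfp2, the receptor of INSL3, was read in P8 gubernaculum at 1241, 1645 and 1403 counts in WT, at 61, 53 and 67 in INSL3-KI and at 415, 434 and 1390 in INSL3-KO.

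RXFP2 is a receptor coupled to the stimulatory G protein, so its ligand acts on cells through adenylyl cyclase, cAMP and protein kinase A. The membrane-bound isoforms all respond to the stimulatory G protein and differ in what else they answer to. Adcy1, Adcy3 and Adcy8 encode isoforms that calcium and calmodulin stimulate, Adcy5 and Adcy6 encode isoforms that calcium inhibits, Adcy2, Adcy4 and Adcy7 encode isoforms that G protein beta-gamma subunits can enhance, and Adcy9 encodes an isoform that forskolin barely activates. Adcy10 encodes the soluble enzyme, which bicarbonate and calcium activate and which is needed for sperm motility.

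In the GRCm38 annotation (GENCODE M21) the 10 genes lie apart from each other. Adcy5 (ENSMUSG00000022840) spans chr16:35154877-35305738 on the plus strand with 21 merged exons, and Adcy9 (ENSMUSG00000005580) spans chr16:4287529-4420498 on the minus strand with 11. Adcy2 (ENSMUSG00000021536) spans chr13:68620043-68999541 on the minus strand with 25 exons, and Adcy10 (ENSMUSG00000026567) spans chr1:165485183-165576774 on the plus strand with 36. Adcy6 (ENSMUSG00000022994, chr15:98589973-98610076) and Adcy8 (ENSMUSG00000022376, chr15:64697084-64922296) share chromosome 15. The others are Adcy1 (ENSMUSG00000020431, chr11:7063489-7178506), Adcy3 (ENSMUSG00000020654, chr12:4133103-4213525), Adcy4 (ENSMUSG00000022220, chr14:55769057-55784095) and Adcy7 (ENSMUSG00000031659, chr8:88272403-88329962). Exons of Adcy3 overlap those of Cenpo on the other strand over 1380 bases, and exons of Adcy2 and Adcy6 overlap antisense genes over 189 and 605 bases. Whether counting used strand is not given in the sources used here, so the reads of these 3 genes cannot be told apart from those of their overlapping partners.

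Of the 10 genes, 8 had an entry among RefSeq promoters (GRCm38.p6), with 11 entries in all, and none was listed for Adcy6 or Adcy8. The 250 bases before the start are shown for 3 genes on which the results turn, so that their make-up can be set beside the expression values. Capitals mark the GC box, searched as GGGCGG on both strands, which 32.7% of all 32851 promoter windows of this length hold. The windows are Adcy5 (chr16:35154614-35154863, plus strand), Adcy2 (chr13:68999542-68999791, minus strand) and Adcy10 (chr1:165484933-165485182, plus strand), each read 5′ to 3′.
Adcy5: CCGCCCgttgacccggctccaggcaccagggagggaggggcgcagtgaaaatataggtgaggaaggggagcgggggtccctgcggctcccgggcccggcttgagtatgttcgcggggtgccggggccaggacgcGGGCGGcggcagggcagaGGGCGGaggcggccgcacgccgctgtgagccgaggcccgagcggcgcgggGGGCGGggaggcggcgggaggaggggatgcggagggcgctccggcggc
Adcy2: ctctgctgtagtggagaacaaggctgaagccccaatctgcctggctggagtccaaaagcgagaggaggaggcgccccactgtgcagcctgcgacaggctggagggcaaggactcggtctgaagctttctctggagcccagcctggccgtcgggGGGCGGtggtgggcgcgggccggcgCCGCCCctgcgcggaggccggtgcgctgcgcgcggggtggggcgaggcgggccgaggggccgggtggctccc
Adcy10: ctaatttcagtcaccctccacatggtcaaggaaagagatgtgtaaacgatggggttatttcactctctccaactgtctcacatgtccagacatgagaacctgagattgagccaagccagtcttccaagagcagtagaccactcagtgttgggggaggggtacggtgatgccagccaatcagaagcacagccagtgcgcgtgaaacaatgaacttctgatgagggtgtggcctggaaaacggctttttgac
The Adcy5 window held 4 GC boxes and was 78.0% G and C, the Adcy2 window held 2 and was 73.2%, and the Adcy10 window held none and was 50%, beside a median of 52.4% over all windows. Adcy9 (78.8% G and C) held 4 GC boxes and Adcy1 (71.2%) held 3. The full cAMP response element, searched as TGACGTCA (a palindrome) and present in 1.55% of all windows, was in no window of these genes, nor was the TATA box, searched as TATAAA and present in 12.4%. The shorter TGACG, which the full element contains and which 17.8% of windows hold, was found in the Adcy9 window and in 1 of the 3 Adcy7 windows. A match or its absence describes these letters in these windows alone.

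Levels of different genes are compared as FPKM, the authors' fragment values scaled by transcript length and depth. In WT gubernaculum at P8, Adcy6 was the most abundant isoform at 16.7 ± 3.0 FPKM (SD, n = 3), followed by Adcy2 at 10.6 ± 1.3 FPKM and Adcy7 at 9.34 ± 1.4 FPKM, whose libraries overlapped. Adcy3 stood at 5.54 ± 0.49 FPKM, and Adcy4, Adcy9, Adcy5 and Adcy1 lay between 2.43 and 0.991 FPKM with each neighbour overlapping the next. Adcy10 and Adcy8 were near the limit of detection, with 3 to 64 and 8 to 11 counts per library. Adcy5 was thus a minor isoform of the WT gubernaculum at P8, at 1.41 ± 0.31 FPKM.

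WT testis at P8 had another order. Adcy7 led at 28.8 ± 0.77 FPKM, above Adcy6 at 11.6 ± 2.9 FPKM, and Adcy2, Adcy3 and Adcy5 followed between 8.99 and 7.94 FPKM with overlapping libraries. Between the tissues at P8, edgeR's quasi-likelihood test called 3 of 10 isoforms, 1 higher and 2 lower in gubernaculum, beside 28.4% of all genes tested (14.1% higher and 14.3% lower). A gene is called here when its adjusted p is below 0.01 and it differs by a factor of 2 or more. On the log2 scale and with its standard error (SE), Adcy5 was 2.03 ± 0.19 lower in gubernaculum (log2 fold change -2.03, adjusted p = 1e-04). Adcy7 was lower too (log2 fold change -1.10 ± 0.12, adjusted p = 0.00024). Adcy4 was higher (log2 fold change 1.12 ± 0.21, adjusted p = 0.0027), a call that was lost without WT gubernaculum replicate 2 or 3 or WT testis replicate 1 or 2 (log2 fold changes from 0.97 to 1.12). Adcy6 (log2 fold change 0.94 ± 0.21, adjusted p = 0.0062) lay under the fold of 2 and was called without WT gubernaculum replicate 1 (1.06) or WT testis replicate 3 (1.14). Adcy8 (-4.18 ± 1.5, adjusted p = 0.046) was called without WT testis replicate 1, which read it at 0.

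**Figure D1:**
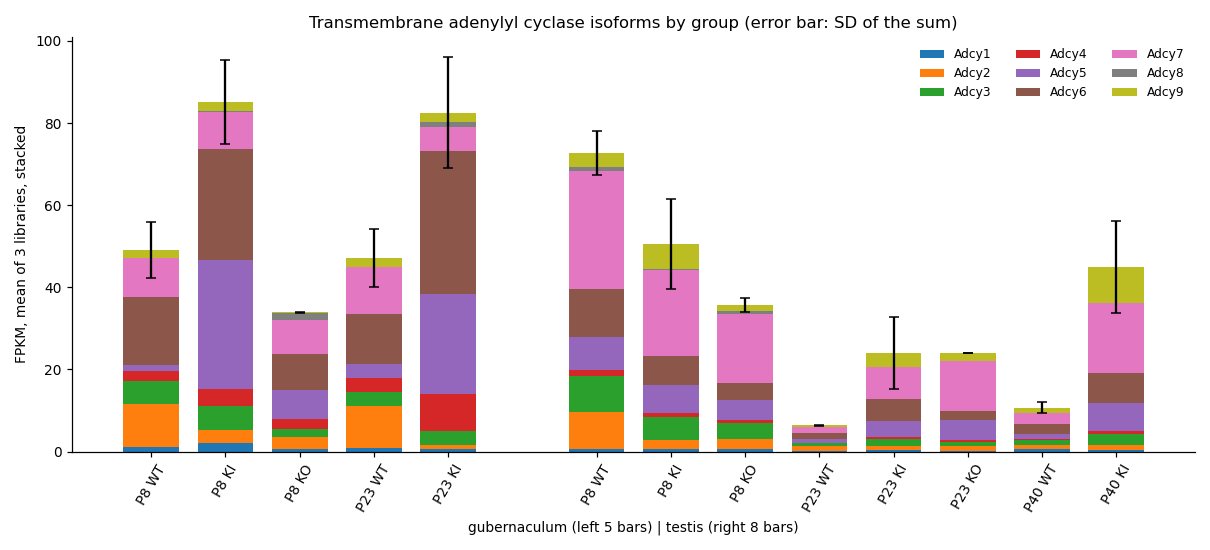
Mean FPKM of the 9 transmembrane isoforms, stacked for each of the 13 groups, with the SD of their sum over 3 libraries as the error bar. Adcy5 is a thin band in WT gubernaculum at P8 (1.41 FPKM) and one of the widest in INSL3-KI (31.4 FPKM), and the stack of WT testis stands at 72.7 FPKM at P8 and, in the other table, at 6.39 FPKM at P23.

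In P8 gubernaculum the isoform that differed most between INSL3-KI and WT was Adcy5, one of the isoforms that calcium inhibits. Its counts were 273, 427 and 420 in WT and 6242, 8969 and 6238 in INSL3-KI, and they were 2020, 2357 and 2195 in INSL3-KO. Every INSL3-KI library was above every INSL3-KO library, and every INSL3-KO library was above every WT library. In FPKM the means were 1.41 ± 0.31 in WT, 31.4 ± 7.6 in INSL3-KI, with 7.07 ± 0.21 in INSL3-KO (n = 3 each).

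Adcy5 rose in INSL3-KI against WT with a log2 fold change of 4.13 ± 0.24 (adjusted p = 5e-06), a 17.6-fold difference. The test called 2 of 10 isoforms in this comparison, 1 higher and 1 lower, beside 24.1% of all genes (14.4% higher and 9.7% lower), and the median log2 fold change of the 10 isoforms was 0.08 against 0.02 over all genes tested. Adcy5 rose in INSL3-KO too (log2 fold change 2.16 ± 0.17, adjusted p = 3.4e-05), where 5 of 10 isoforms were called, 2 higher and 3 lower, beside 30.7% of all genes (15.5% higher and 15.2% lower). Between the mutants, Adcy5 was higher in INSL3-KI (log2 fold change 1.94 ± 0.17, adjusted p = 8.2e-05). The comparisons with INSL3-KO cross the tables, and both mutants were set against the same WT libraries.

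Adcy6, the other isoform that calcium inhibits, did not follow Adcy5. Its counts were 2565, 3410 and 3426 in WT, 4472, 4644 and 3974 in INSL3-KI, with 2008, 2581 and 2347 in INSL3-KO. The INSL3-KI and WT libraries did not overlap, yet the log2 fold change was 0.34 ± 0.13 (adjusted p = 0.054). Against WT the INSL3-KO value was -0.84 ± 0.12 (adjusted p = 0.00064), under the fold of 2. Adcy6 was called between the mutants, higher in INSL3-KI (log2 fold change 1.14 ± 0.078, adjusted p = 3.3e-05).

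Among the isoforms that beta-gamma subunits enhance, Adcy2 was the one called. It was read at 1408, 1800 and 1815 counts in WT, at 544, 393 and 364 in INSL3-KI and at 502, 597 and 592 in INSL3-KO. All 6 mutant libraries were below the lowest WT library. Adcy2 fell in INSL3-KI (log2 fold change -2.10 ± 0.15, adjusted p = 1.5e-05) and in INSL3-KO (log2 fold change -1.97 ± 0.11, adjusted p = 9.2e-06). The test called no difference between the mutants (log2 fold change -0.16 ± 0.13, adjusted p = 0.31). Adcy7 and Adcy4 were not called in any P8 gubernaculum comparison, with log2 fold changes between -0.48 and 0.51.

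Of the isoforms that calmodulin stimulates, Adcy8 had the widest spread. Its counts were 8, 11 and 11 in WT, 20, 140 and 89 in INSL3-KI, with 340, 411 and 416 in INSL3-KO, so that the groups did not overlap. Adcy8 rose in INSL3-KO (log2 fold change 4.87 ± 0.22, adjusted p = 3.4e-06), whereas in INSL3-KI the log2 fold change of 2.95 ± 0.74 missed the threshold (adjusted p = 0.010) and passed it without INSL3-KI replicate 1 (3.43, adjusted p = 0.0012). The counts and FPKM of Adcy8 imply a transcript of 7222 bases in the table of WT and INSL3-KI and of 5236 in that of INSL3-KO, a difference of gene model that moves with the INSL3-KO label. Markers of epididymal epithelium, 8 in all, summed to 7.25 to 17.6 FPKM in WT, 311 to 339 in INSL3-KI and 166 to 185 in INSL3-KO, with 3 of 4 tested called higher in INSL3-KI and 4 of 5 in INSL3-KO. Lcn8 and Lcn9 were at 0 throughout WT, and Lcn9 throughout both mutants. INSL3-KO thus had the most Adcy8 counts and INSL3-KI the highest epididymal sum, and the part of such cells was not tested. Leaving out INSL3-KI replicate 1 also brought a call between the mutants (log2 fold change -1.48 for INSL3-KI against INSL3-KO, adjusted p = 0.0024, against -1.97 and 0.024 with all libraries).

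Adcy3, the isoform of olfactory cilia, was read at 980, 899 and 1021 counts in WT, at 1141, 828 and 716 in INSL3-KI and at 406, 402 and 447 in INSL3-KO. The INSL3-KI and WT libraries overlapped and the INSL3-KO libraries lay below both. Adcy3 fell in INSL3-KO (log2 fold change -1.60 ± 0.11, adjusted p = 2.3e-05) and was not called in INSL3-KI (-0.26 ± 0.15, adjusted p = 0.16). Between the mutants it was higher in INSL3-KI (log2 fold change 1.30 ± 0.15, adjusted p = 0.00026). Adcy1 was higher in INSL3-KI than in the other mutant (log2 fold change 1.67 ± 0.16, adjusted p = 0.00012), and its counts against WT were 809, 995 and 745 in INSL3-KI and 256, 314 and 367 in INSL3-KO beside 303, 496 and 573, with no call against WT (a log2 fold change of -0.95 in INSL3-KO, adjusted p = 0.011, was called at -1.17 without WT replicate 1).

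Adcy9 set the INSL3-KO gubernaculum apart. Its counts were 200, 409 and 432 in WT, 279, 447 and 276 in INSL3-KI, with 24, 26 and 13 in INSL3-KO. The WT and INSL3-KI libraries overlapped, while no INSL3-KO library came near them. Adcy9 fell in INSL3-KO against WT (log2 fold change -4.42 ± 0.42, adjusted p = 9.1e-05) and differed between the mutants, higher in INSL3-KI (log2 fold change 4.21 ± 0.37, adjusted p = 9e-05). In all, 5 of the 9 isoforms tested were called between the mutants, all higher in INSL3-KI, beside 22.5% of all genes in either direction and 11.9% higher. Over the whole series Adcy9 held 200 to 1893 counts in the 27 libraries of the first table and 13 to 448 in the 12 of the second.

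Adcy10, the soluble enzyme, was read in P8 gubernaculum at 64, 44 and 3 counts in WT, 5, 0 and 10 in INSL3-KI, with 12, 2 and 10 in INSL3-KO. The WT libraries spread widely and overlapped both mutants, and no comparison was called. In the same 3 WT libraries the markers of elongating spermatids, 6 in all, summed to 66.3, 16.3 and 1.03 FPKM, against 0.202 to 0.760 FPKM in INSL3-KI.

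**Figure D2:**
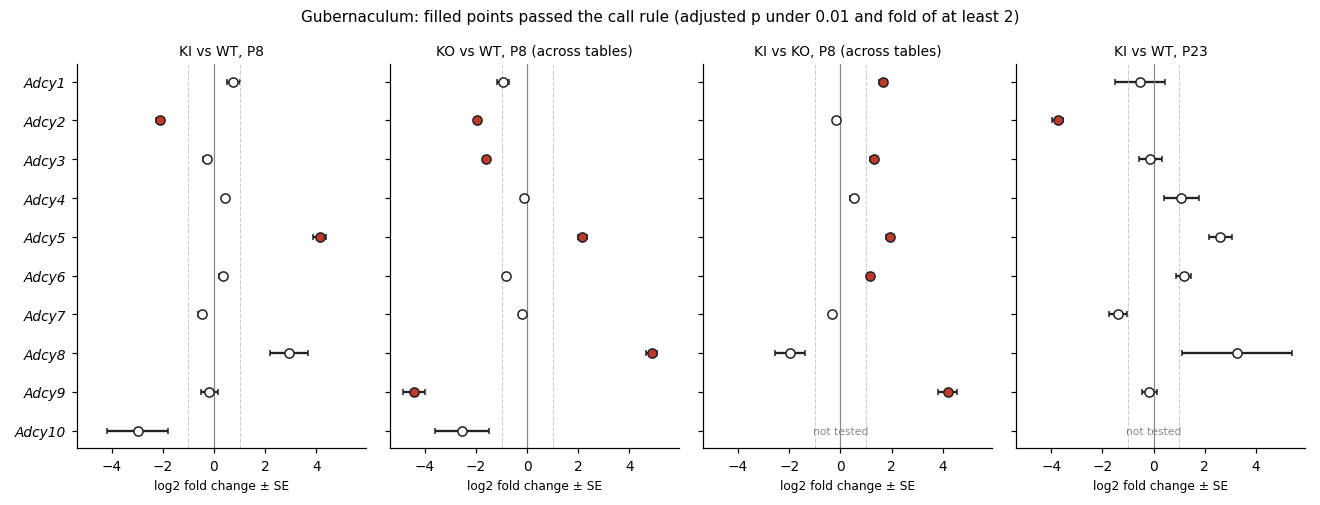
Log2 fold change of each isoform in gubernaculum with its SE, for INSL3-KI and INSL3-KO against WT and INSL3-KI against INSL3-KO at P8 and for INSL3-KI against WT at P23, with filled symbols for calls. Adcy5 lies at 4.13 and 2.16 in the P8 mutants against WT while Adcy2 lies at -2.10 and -1.97, and Adcy9 (-4.42) and Adcy8 (4.87) stand apart in INSL3-KO.

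Because of these differences the make-up of the transmembrane family was not alike in the genotypes. Adcy5 made up 2.86% ± 0.27 of the summed FPKM of the 9 transmembrane isoforms in WT, 36.6% ± 4.6 in INSL3-KI, with 20.8% ± 0.71 in INSL3-KO. Adcy2 made up 21.6% ± 0.38, 3.74% ± 0.84 and 8.91% ± 0.12 of it. The sum itself was 49.0 ± 6.9 FPKM in WT, 85.0 ± 10.3 in INSL3-KI, with 33.9 ± 0.15 in INSL3-KO, and the libraries of the 3 genotypes did not overlap. These are descriptions of the deposited FPKM values, with no test. They depend on the transcript length used, implied for Adcy6 at 3817 to 6274 bases in the first table and 6152 to 6417 in the second. Adcy6 stood at 16.7 ± 3.0 FPKM in WT and 27.1 ± 2.5 in INSL3-KI, where its counts gave a 1.27-fold difference. The INSL3-KO values lie in the other table, with other gene models.

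Markers of muscle moved with Adcy2 and Adcy5. Over 10 skeletal muscle markers the summed FPKM ranged from 21457 to 22925 in WT, from 563 to 987 in INSL3-KI and from 7001 to 7773 in INSL3-KO, and all 10 were called lower in each mutant. Over 7 smooth muscle markers it ranged from 545 to 756 in WT, from 8002 to 9464 in INSL3-KI and from 3584 to 3827 in INSL3-KO, with 6 of 7 called higher in each mutant. Over 6 adipocyte markers it ranged from 85.8 to 96.1 FPKM in WT, from 1056 to 1333 in INSL3-KI and from 2034 to 2329 in INSL3-KO, with all 6 called higher in each mutant. No skeletal or smooth muscle marker was at 0 throughout a P8 gubernaculum group. Adcy2 was nearly equal in the mutants, at 3.13 ± 0.47 and 3.02 ± 0.052 FPKM, where the skeletal muscle sums lay far apart. In bulk tissue, fewer cells of a type and less RNA per cell cannot be told apart, and the part of cell composition in these differences was not tested.

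**Figure D3:**
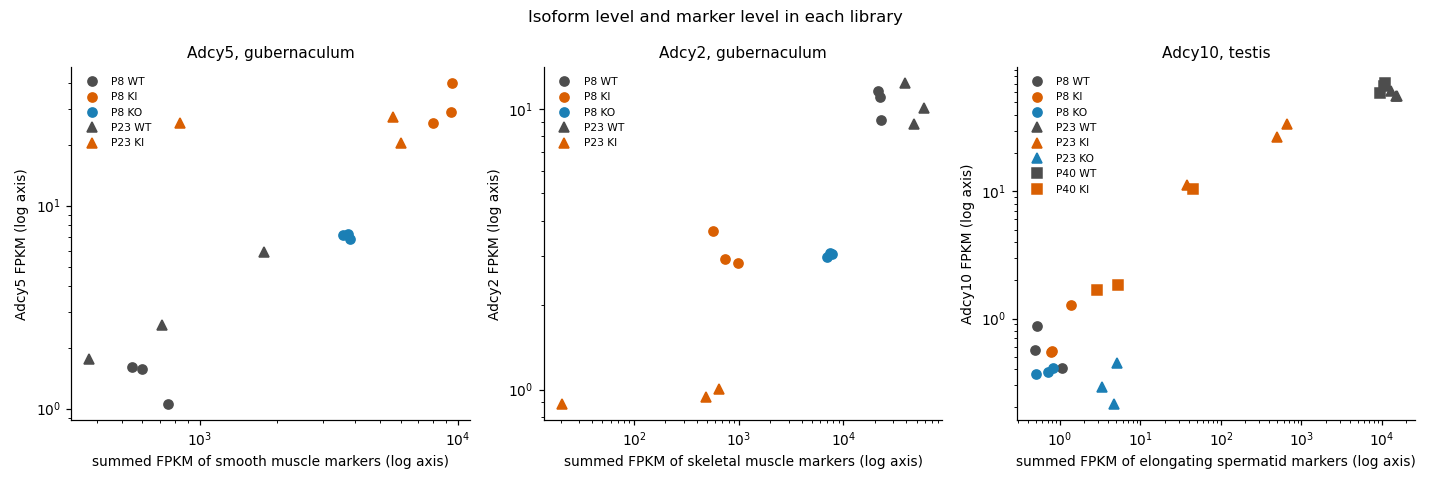
Levels of 3 isoforms (FPKM) against the summed FPKM of a marker list in each library, on log axes: Adcy5 against smooth muscle markers and Adcy2 against skeletal muscle markers in gubernaculum, and Adcy10 against elongating spermatid markers in testis. The INSL3-KI gubernaculum library at P23 with a smooth muscle sum of 837 FPKM has Adcy5 at 25.6 FPKM, beside 27.2 and 20.3 FPKM in those with sums of 5606 and 5998.

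At P23 the INSL3-KI gubernacula were unlike each other. Their adipocyte marker sums were 10000, 16864 and 682 FPKM, their smooth muscle sums 5606, 837 and 5998, and their epididymal epithelium sums 337, 1.49 and 710, beside 93.0 to 143, 375 to 1777 and 12.1 to 66.9 FPKM in WT. The skeletal muscle sum was 39035 to 59349 FPKM in WT and 20.6 to 655 in INSL3-KI, where Myog was at 0. Of all genes, 2.57% were called in this comparison and 2.35% were called lower.

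By edgeR, Adcy2 was the single isoform called at P23 among 9 tested. It was read at 1503, 1403 and 1951 counts in WT and at 159, 136 and 165 in INSL3-KI, with no overlap and little spread within either group. Adcy2 fell with a log2 fold change of -3.75 ± 0.21 (adjusted p = 0.0013), which held with each library left out in turn (adjusted p-values from 0.0026 to 0.0095). The call was lost when a replicate block was fitted, as given with the processing. DESeq2 called 4, Adcy2, Adcy5, Adcy6 (adjusted p = 0.0053) and Adcy7 (0.0045), beside 13.4% of all genes. Adcy2 was also the isoform nearest to a call in the test of whether the INSL3-KI effect differed between P23 and P8 (difference of log2 fold changes -1.68 ± 0.24, adjusted p = 0.010). By edgeR none of the 10 isoforms was called in that test, beside 0.281% of all genes, 5 had an unadjusted p under 0.05, and DESeq2 called 1. Without INSL3-KI replicate 3 at P23 edgeR called 2, Adcy2 (-1.60) and Adcy7 (-1.38), and without replicate 2 it called Adcy2 (-1.65).

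Adcy5 was read at P23 at 439, 683 and 1553 counts in WT and at 7125, 6513 and 5925 in INSL3-KI. All INSL3-KI libraries were above all WT libraries, and the log2 fold change of 2.60 ± 0.45 missed the threshold (adjusted p = 0.021), while DESeq2 called it (8.3e-07). WT replicate 3, highest for Adcy5, also had the highest smooth muscle sum of its group (1777 FPKM against 375 and 719). Adcy5 held 29.6% ± 1.7 of the transmembrane FPKM in INSL3-KI and 6.94% ± 3.5 in WT. In INSL3-KI the level was 27.2, 25.6 and 20.3 FPKM, where the smooth muscle sums were 5606, 837 and 5998 FPKM.

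The other isoforms at P23 varied with the library. Adcy4 had 852, 2161 and 386 counts in INSL3-KI, with endothelial marker sums of 181, 581 and 71.4 FPKM in the same order, and a log2 fold change of 1.08 ± 0.69 (adjusted p = 0.31). Adcy8 had 51, 4 and 996 counts in INSL3-KI and 7, 0 and 70 in WT, and in both groups the library with the most counts had the highest epididymal sum. Adcy1 had 540, 18 and 380 counts in INSL3-KI, within which replicate 2 stood far below the others and below the WT range of 287 to 429. Adcy7 had 1854, 2995 and 2476 counts in WT and 718, 849 and 2206 in INSL3-KI, an overlap, with a log2 fold change of -1.37 ± 0.35 (adjusted p = 0.054). Adcy6 had 2067 to 2832 counts in WT and 5239 to 8326 in INSL3-KI, with no overlap and a log2 fold change of 1.18 ± 0.30 (adjusted p = 0.051). Adcy10 was filtered out, with 0 to 7 counts in WT and 5 to 109 in INSL3-KI.

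Between P8 and P23 the WT gubernaculum had the same 3 leading isoforms, Adcy6, Adcy7 and Adcy2, at 12.2, 11.4 and 10.4 FPKM with overlapping neighbours. By edgeR none of 9 isoforms was called with age, beside 10.5% of all genes, with 3 at an unadjusted p under 0.05. DESeq2 called 1, Adcy5 (log2 fold change 1.32, adjusted p = 0.0036, against edgeR's 1.33 ± 0.39 and 0.033).

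**Figure D4:**
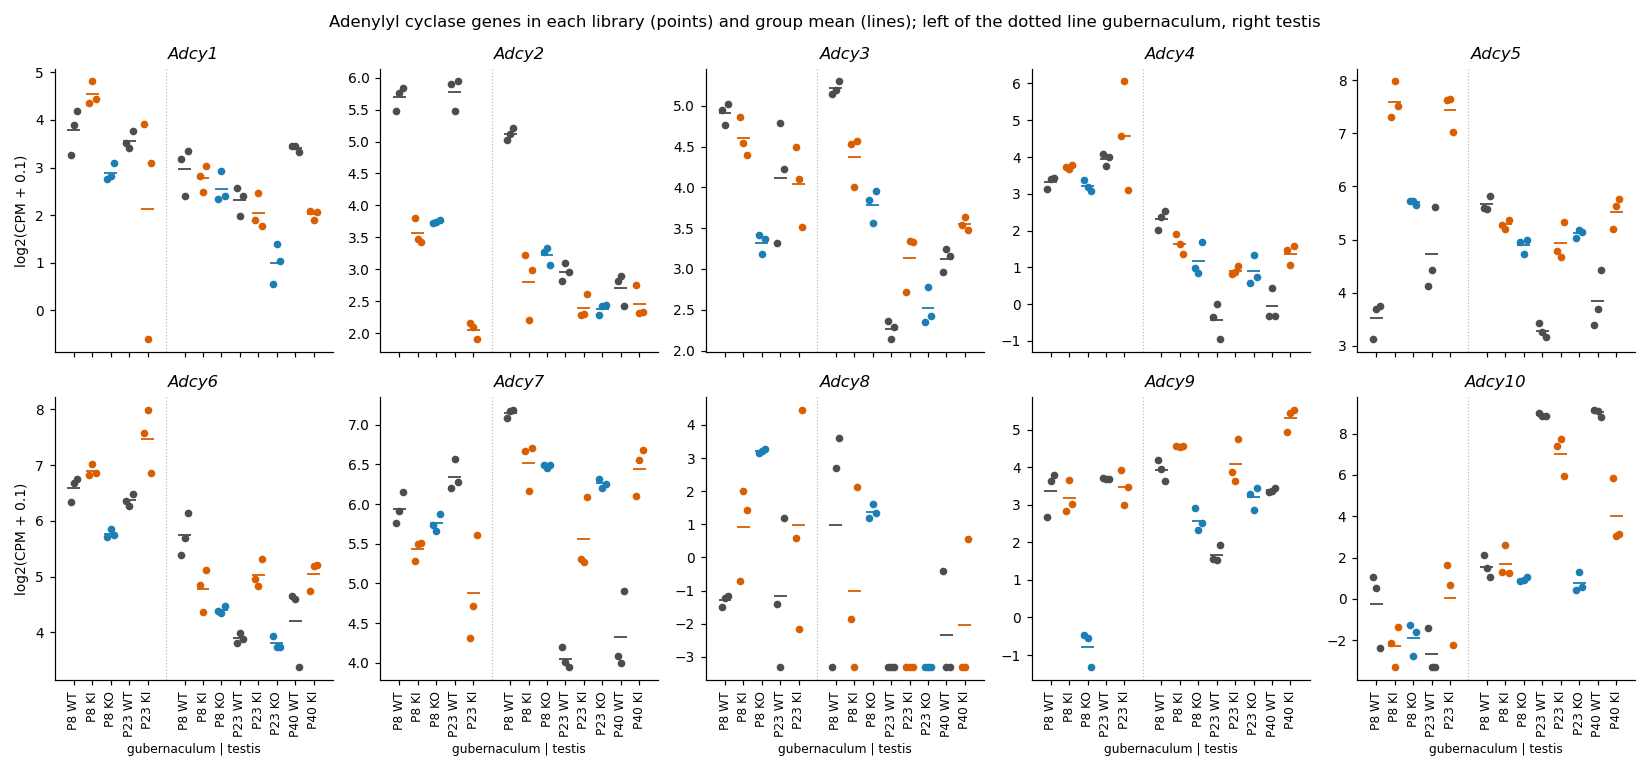
Level of each isoform in every library as log2(CPM + 0.1), with CPM, counts scaled to a common library total, normalized by TMM within a tissue, the 3 replicates of a group side by side and a line at their mean, gubernaculum left and testis right of the dotted line. Adcy10 stays under 5 CPM in WT testis at P8 and runs from 453 to 576 CPM at P40, and Adcy5 from 131 to 252 CPM in the INSL3-KI gubernaculum libraries.

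In P8 testis Adcy2 was the one isoform called against WT both in INSL3-KI and in the libraries labelled INSL3-KO. Its counts were 1301, 1528 and 1578 in WT, 420, 179 and 382 in INSL3-KI, with 491, 450 and 377 in the libraries labelled INSL3-KO. Neither group overlapped WT, and they overlapped each other. Adcy2 fell in INSL3-KI (log2 fold change -2.20 ± 0.27, adjusted p = 0.0045), the single call among 10 isoforms beside 6.29% of all genes (3.25% lower and 3.03% higher). That call was lost without WT replicate 2 (adjusted p = 0.034) or 3 (0.020), or without INSL3-KI replicate 1 (0.020) or 3 (0.015), with log2 fold changes between -2.42 and -2.13. Adcy2 fell in the libraries labelled INSL3-KO as well (log2 fold change -1.87 ± 0.10, adjusted p = 2.3e-05). Skeletal muscle markers summed to 5.07 to 11.7 FPKM in WT, 6.93 to 8.67 in INSL3-KI and 18.9 to 21.2 under the INSL3-KO label in this tissue. They were low in each group beside the gubernaculum, and highest under the INSL3-KO label. Leydig cell markers summed to 333 to 394 FPKM in WT, 102 to 131 in INSL3-KI and 256 to 267 under the INSL3-KO label, and spermatocyte markers to 29.0 to 65.2, 250 to 728 and 329 to 336, and their part in these differences was not tested. Scaled on Sertoli cell markers, Adcy2 remained called in INSL3-KI (-1.87) and in the libraries labelled INSL3-KO (-1.57).

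In the libraries labelled INSL3-KO, 4 of 10 isoforms were called, all lower than WT, beside 13.8% of all genes in either direction, 8.37% lower and 5.44% higher. The median log2 fold change of the 10 was -1.18, against -0.02 over all genes. Besides Adcy2 these were Adcy3 (log2 fold change -1.40 ± 0.12, adjusted p = 1e-04), Adcy6 (-1.36 ± 0.18, adjusted p = 0.00072) and Adcy9 (-1.32 ± 0.21, adjusted p = 0.0015). Adcy9 was no longer called without the replicate 3 labelled INSL3-KO (log2 fold change -1.28, adjusted p = 0.010), whereas Adcy4 (-1.10 ± 0.30, adjusted p = 0.017) was called without WT replicate 1 (-1.20) or without that INSL3-KO replicate (-1.42). Adcy8 was also called without WT replicate 1 (log2 fold change -1.80, adjusted p = 0.00069), which read it at 0. This comparison crosses the tables, and Insl3 itself had a log2 fold change of -2.12 ± 0.13 in these libraries. In INSL3-KI it was -6.96 ± 0.25, a value for mouse Insl3 that does not measure the cetacean gene.

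Adcy9 differed between INSL3-KI testis and the libraries labelled INSL3-KO at P8. Its counts were 723, 675 and 523 in WT testis, 1071, 915 and 1157 in INSL3-KI and 378, 221 and 255 in the libraries labelled INSL3-KO. No libraries of the 3 groups overlapped, with INSL3-KI highest, and the libraries labelled INSL3-KO lie in the other table. INSL3-KI against WT gave a log2 fold change of 0.69 ± 0.16 (adjusted p = 0.020), which was not called under TMM and was called at 1.07 on the Sertoli cell scaling, and INSL3-KI against the libraries labelled INSL3-KO gave 1.99 ± 0.17 (adjusted p = 0.00057), the single call of 10 beside 3.92% of all genes in either direction and 2.76% higher.

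Adcy7, the most abundant isoform of P8 testis, had 5438, 6386 and 6265 counts in WT, 4629, 2840 and 5099 in INSL3-KI, with 4615, 3936 and 4104 in the libraries labelled INSL3-KO. All libraries of both groups were below WT, by less than the fold of 2 (log2 fold changes of -0.55 ± 0.16 and -0.65 ± 0.055, adjusted p = 0.038 and 1e-04). Adcy8 was uneven within groups at P8, with 0, 283 and 512 counts in WT and 8, 0 and 207 in INSL3-KI, where the epididymal epithelium sums were 41.3, 93.0 and 119 FPKM and 38.7, 35.3 and 90.2 FPKM. The libraries labelled INSL3-KO held 111, 133 and 111. The highest library of the WT and of the INSL3-KI group was in each case the one with the highest epididymal sum, and the part of such cells was not tested. That order within P8 groups did not extend to older WT testis, where epididymal sums were higher and Adcy8 was at or near 0, as given below. Adcy10 had 84 to 172 counts in WT, 106 to 234 in INSL3-KI and 79 to 89 in the libraries labelled INSL3-KO, with no call.

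In WT testis Adcy10 was the isoform that rose with age. It had 172, 122 and 84 counts at P8, 12709, 11451 and 11136 at P23 and 13163, 14077 and 13531 at P40. The P8 libraries were far below all later ones. Between P40 and P8, which lie in 1 table, Adcy10 rose with a log2 fold change of 7.41 ± 0.30 (adjusted p = 2.6e-07), and it stood at 58.0 ± 3.2 FPKM at P23 and 65.5 ± 5.7 FPKM at P40, where the next isoform, Adcy7, had 1.60 and 2.60 FPKM. Markers of elongating spermatids summed to 0.486 to 1.06 FPKM in WT at P8, 13121 to 15390 at P23 and 9466 to 10843 at P40.

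The transmembrane isoforms made up less of the library in older WT testis. Their summed FPKM was 72.7 ± 5.3 at P8, 6.39 ± 0.084 at P23 (in the other table) and 10.7 ± 1.3 at P40. The test called 7 of 10 isoforms between P40 and P8, 6 of them lower at P40, beside 59.7% of all genes in either direction, 27.8% lower and 31.9% higher. The lower calls under TMM were Adcy7 (log2 fold change -2.81 ± 0.25), Adcy4 (-2.51 ± 0.35), Adcy2 (-2.46 ± 0.15), Adcy3 (-2.15 ± 0.12), Adcy5 (-1.81 ± 0.26) and Adcy6 (-1.52 ± 0.34), but when libraries were scaled on 7 Sertoli cell markers instead, Adcy3, Adcy5 and Adcy6 turned to 0.26, 0.56 and 0.91, and Adcy7, Adcy4 and Adcy2 to -0.43, -0.10 and -0.04. The Adcy6 call was also lost without WT replicate 2 at P8 (-1.56, adjusted p = 0.010) or at P40 (-1.66, adjusted p = 0.010), and Adcy8 (log2 fold change -4.94) was called without WT replicate 1 at P8 (-5.54, adjusted p = 0.0017). Sertoli cell markers summed to 617 to 797 FPKM at P8 and 76.2 to 93.9 at P40. Scaling on them was chosen after seeing the data, moves all genes of a library alike and shifted the all-gene median from -0.03 to 2.38. All 6 isoforms lay below that median under both scalings, which such a shift nearly fixes in advance and which adds no support. The 7 markers did not move together, with 5 called lower and 1 higher at P40 under TMM, and 1 lower and 2 higher after the scaling. Values on this scaling are therefore not levels per Sertoli cell. Adcy10 was higher at P40 under both scalings (9.85 on Sertoli cell markers), which an upward shift of all genes nearly fixes in advance and which adds no support.

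In INSL3-KO testis at P23, Adcy10 was almost absent. It had 12709, 11451 and 11136 counts in WT and 47, 103 and 58 in INSL3-KO, all in 1 table and with no overlap. Adcy10 fell with a log2 fold change of -8.08 ± 0.15 (adjusted p = 1.1e-11), a 271-fold difference. On the Sertoli cell scaling it had -10.64. That scaling moved the median of all genes to -2.50, so this direction was nearly fixed in advance. The test called 6 of 9 isoforms, 4 higher and 2 lower, beside 64.4% of all genes (31.1% higher and 33.4% lower), a share close to that background. Elongating spermatid markers summed to 3.30 to 5.13 FPKM in INSL3-KO against 13121 to 15390 in WT, and all 6 were called lower.

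Of the membrane isoforms in INSL3-KO testis at P23, Adcy7 led. Its counts were 457, 393 and 369 in WT and 2993, 3207 and 3159 in INSL3-KO, far apart with tight replicates. Under TMM, Adcy7 (log2 fold change 2.27 ± 0.081, adjusted p = 1.3e-09), Adcy5 (1.90 ± 0.099, adjusted p = 2.6e-08), Adcy9 (1.62 ± 0.20, adjusted p = 2.7e-05) and Adcy4 (1.49 ± 0.40, adjusted p = 0.0054) were called higher, whereas scaling on Sertoli cell markers turned them to -0.29, -0.66, -0.93 and -1.06. That scaling moves all genes of a library alike and shifted the all-gene median from 0.06 to -2.50. That all 4 stayed above it was thus nearly fixed in advance. The Adcy4 call, at 10 to 22 counts in WT and 52 to 106 in INSL3-KO, was lost without WT replicate 1 (adjusted p = 0.021) or 3 (1.24, 0.026) or INSL3-KO replicate 2 (1.19, 0.026). Adcy1 fell under TMM (log2 fold change -1.28 ± 0.28, adjusted p = 0.0014). It had -3.84 on Sertoli cell markers, a direction that the downward shift nearly fixed in advance. Adcy2, Adcy3 and Adcy6 were not called under TMM (-0.53, 0.33 and -0.03). They were called lower on Sertoli cell markers (-3.08, -2.23 and -2.59), beside 76.3% of all genes called lower there. Sertoli cell, macrophage and Leydig cell markers summed to 737 to 772, 267 to 300 and 821 to 849 FPKM in INSL3-KO, beside 77.9 to 80.7, 27.4 to 30.2 and 229 to 242 in WT.

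INSL3-KI testis at P23 lay between WT and INSL3-KO for Adcy10. The INSL3-KI libraries held 6161, 7156 and 2225 Adcy10 counts, all below the WT libraries and all far above the INSL3-KO libraries. Against WT the log2 fold change of -1.70 ± 0.42 missed the threshold (adjusted p = 0.016) and was called at -1.33 without INSL3-KI replicate 3 (adjusted p = 2e-05). That replicate had an elongating spermatid sum of 38.0 FPKM, beside 501 and 667 in the other INSL3-KI libraries. Against INSL3-KO, Adcy10 was higher in INSL3-KI (log2 fold change 6.45 ± 0.59, adjusted p = 0.00026). Both comparisons cross the tables, and in the second, 2 of 9 isoforms were called, both higher, beside 38.2% of all genes (25.2% higher), the other being Adcy6 (log2 fold change 1.25 ± 0.17, adjusted p = 0.0012), with the same direction under the Sertoli cell scaling (8.04 and 2.58). That scaling shifted the all-gene median of this comparison from 0.02 to 1.39, so the direction of these 2 calls was nearly fixed in advance. Adcy5, not called under TMM (-0.17) and called at 1.14 on that scaling, lay below the median of all genes both times. Moving all genes of a library alike nearly fixes this in advance.

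For the membrane isoforms of INSL3-KI testis at P23, 4 of 9 were called higher than WT, beside 20.6% of all genes in either direction, 8.81% higher and 11.8% lower. This comparison crosses the tables, so table and genotype cannot be told apart. Over the series, Adcy9 held 200 to 1893 counts in the first table and 13 to 448 in the second. Adcy9 had 71, 69 and 89 counts in WT and 531, 411 and 979 in INSL3-KI, without overlap and with replicate 3 highest. Under TMM, Adcy9 (log2 fold change 2.54 ± 0.36, adjusted p = 0.0029), Adcy5 (1.69 ± 0.22, adjusted p = 0.0023), Adcy7 (1.57 ± 0.26, adjusted p = 0.0044) and Adcy6 (1.17 ± 0.18, adjusted p = 0.0035) were called, and scaled on Sertoli cell markers Adcy9 remained called at 1.25, Adcy5 and Adcy7 had 0.48 and 0.33 without a call, and Adcy6 turned to -0.0097. That scaling shifted the all-gene median from 0.08 to -1.04. All 4 stayed above it, which is nearly fixed in advance when all genes of a library move alike. The calls of Adcy5, Adcy6, Adcy7 and Adcy9 were all lost without WT replicate 1, 2 or 3 or INSL3-KI replicate 1, with log2 fold changes between 1.13 and 2.67 and adjusted p-values from 0.010 to 0.026. Sertoli cell marker sums were 221, 169 and 458 FPKM in INSL3-KI.

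At P40, WT and INSL3-KI testis lie in 1 table. Adcy10 had 13163, 14077 and 13531 counts in WT and 2185, 323 and 362 in INSL3-KI, with no overlap and replicate 1 apart within INSL3-KI. Adcy10 fell under TMM (log2 fold change -4.40 ± 0.87, adjusted p = 0.0044). The call was lost without WT replicate 1, 2 or 3 or INSL3-KI replicate 3 (log2 fold changes from -4.47 to -4.00, adjusted p-values from 0.011 to 0.017). Adcy10 had -6.40 on Sertoli cell markers, where the median of all genes moved to -2.13 and this direction was nearly fixed in advance. INSL3-KI replicate 1 also had the highest elongating spermatid sum of its group, 44.8 FPKM beside 2.85 and 5.22, and the highest spermatocyte sum, 485 FPKM beside 164 and 123. In INSL3-KI the first isoform by FPKM was Adcy7 at 17.1 ± 4.8, then Adcy9 at 8.64 ± 2.3, with Adcy10 at 4.63 ± 5.0.

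Including Adcy10, 6 of 9 isoforms were called at P40 beside 47.7% of all genes, 4 higher (25.6% of all genes) and 2 lower (22.1%), and the median over the 9 was 0.81 against 0.09 over all genes. Adcy9 had 228, 259 and 322 counts in WT and 1170, 1737 and 1893 in INSL3-KI, and Adcy7 had 386, 403 and 890 in WT and 2620, 3737 and 4194 in INSL3-KI. Neither gene overlapped between the groups. Under TMM, Adcy7 (log2 fold change 2.13 ± 0.32, adjusted p = 0.0015), Adcy9 (2.01 ± 0.20, adjusted p = 0.00043), Adcy5 (1.70 ± 0.33, adjusted p = 0.0038) and Adcy4 (1.55 ± 0.33, adjusted p = 0.0062) were called higher, whereas scaling on Sertoli cell markers turned them to -0.12, -0.27, -0.55 and -0.68. That scaling shifted the all-gene median from 0.09 to -2.13. The 4 isoforms stayed above it, which is nearly fixed in advance when all genes of a library move alike. Adcy1 fell under TMM (log2 fold change -1.37 ± 0.14, adjusted p = 0.00045). It had -3.60 on Sertoli cell markers, a direction that the downward shift nearly fixed in advance. Adcy2, Adcy3 and Adcy6 were not called under TMM (-0.20, 0.48 and 0.81). They were called lower on Sertoli cell markers (-2.41, -1.76 and -1.50), beside 71.5% of all genes called lower there.

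At P40 the call of Adcy4 was lost without WT replicate 1 (log2 fold change 1.42, adjusted p = 0.027) or 3 (1.42, 0.024) or INSL3-KI replicate 2 (1.69, 0.012) or 3 (1.43, 0.023). The call of Adcy5 was lost without WT replicate 1 (adjusted p = 0.013) or 2 (1.61, 0.019) or INSL3-KI replicate 2 (1.66, 0.011) or 3 (1.57, 0.012). Sertoli cell markers summed to 76.2 to 93.9 FPKM in WT and 448 to 712 in INSL3-KI with all 7 called higher under TMM, and macrophage markers to 22.0 to 37.8 and 141 to 214 with all 5 called higher under TMM and none on the Sertoli cell scaling. Their part in the higher values of the membrane isoforms was not tested.

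Whether the INSL3-KI effect in testis differed between P40 and P8 was tested on the 4 groups together. The test called 8 of 10 isoforms, 6 with a positive and 2 with a negative difference, beside 45.6% of all genes (23.2% positive and 22.5% negative). Adcy10 had the lowest difference (-4.76 ± 1.0, adjusted p = 0.0019), and -7.12 on the Sertoli cell scaling. That scaling moved the median of all genes to -2.54, which nearly fixed this sign in advance. Adcy7 had the highest under TMM (2.61 ± 0.39, adjusted p = 0.00026), which shrank to 0.08 on Sertoli cell markers.

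**Figure D5:**
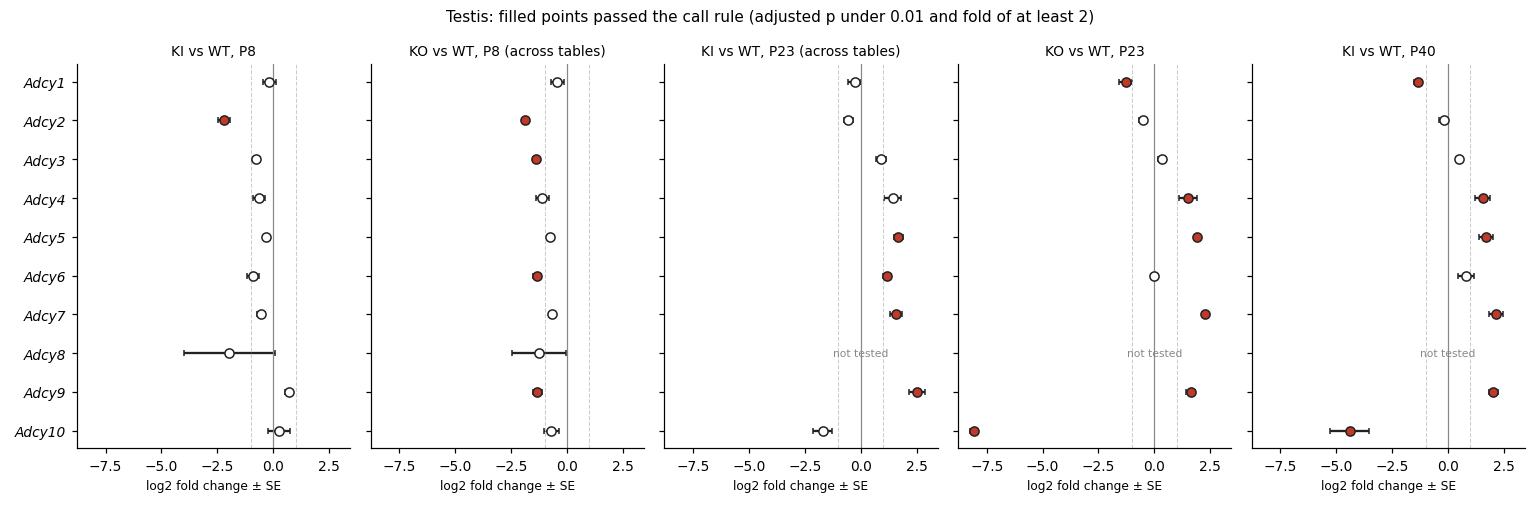
Log2 fold change of each isoform in testis with its SE under TMM, for INSL3-KI and the libraries labelled INSL3-KO against WT at P8 and P23 and for INSL3-KI against WT at P40, with filled symbols for calls. Adcy10 lies at -8.08 in INSL3-KO at P23 and at -4.40 in INSL3-KI at P40, and Adcy4, Adcy5, Adcy7 and Adcy9 lie above 0 in both, where scaling on Sertoli cell markers puts all 4 below 0.

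Adcy8 was not detected in testis at P23. In all 9 testis libraries at P23 it was at 0 counts, which allows up to 0.0728 to 0.0864 CPM per library (3 counts, covering counting error only), and at P40 it was at 15, 0 and 0 in WT and 0, 0 and 56 in INSL3-KI. Neither age gave a test of a mutant against WT, since the gene did not pass the filter on low counts there. Epididymal epithelium markers summed to 229 to 234 FPKM in WT testis at P23 and 132 to 144 at P40, above the P8 testis libraries. They summed to 30.8 to 46.5 in INSL3-KI and 43.3 to 44.8 in INSL3-KO at P23, and to 28.6 to 34.0 in INSL3-KI at P40.

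Around the cyclases, 99 genes of the cAMP pathway were listed by role and 98 are in both tables. In P8 gubernaculum of INSL3-KI, 22 of 91 tested were called lower (9.7% of all genes) and 18 higher (14.4%). In that of INSL3-KO, 25 of 90 were lower (15.2% of all genes) and 18 higher (15.5%). The genes that CREB, the cAMP-activated transcription factor, is known to induce had 6 of 10 called lower in INSL3-KI with 1 higher, and 5 lower with 1 higher in the other mutant. Among receptors, Rxfp2 fell in INSL3-KI (log2 fold change -4.70 ± 0.17, adjusted p = 5.7e-07), and Adrb3, the adrenergic receptor of fat, rose in INSL3-KI (5.68 ± 0.55, adjusted p = 7.1e-05) and INSL3-KO (6.61 ± 0.24, adjusted p = 1.7e-06). Popdc3, a cAMP-binding protein of striated muscle, fell in INSL3-KI (-7.58 ± 0.57, adjusted p = 1.7e-05), as did Akap6, which anchors protein kinase A in muscle (-5.07 ± 0.19, adjusted p = 6e-07). Hcn4, a cAMP-gated channel, rose there (5.48 ± 0.72, adjusted p = 0.00037).

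At P23 in gubernaculum 3 of 89 pathway genes were called, all lower in INSL3-KI, beside 2.35% of all genes lower. They were Akap6 (log2 fold change -4.93 ± 0.30, adjusted p = 0.0015), Pkia, an inhibitor of protein kinase A (-4.50 ± 0.42, adjusted p = 0.0039), and Pde10a, a cAMP phosphodiesterase (-2.21 ± 0.22, adjusted p = 0.0044). In P8 testis 4 of 94 were lower in INSL3-KI (3.25% of all genes) and 2 higher (3.03%), and in the libraries labelled INSL3-KO 11 were lower (8.37% of all genes) and 2 higher (5.44%), shares near those of all genes. Creb5 fell in the latter (-3.33 ± 0.19, adjusted p = 2.4e-05). In INSL3-KI the lower genes included Nr4a1, an early target of cAMP (-2.21 ± 0.34, adjusted p = 0.0066).

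In older testis the counts of pathway genes called lay near the shares of all genes under either scaling. In INSL3-KO at P23, 30 of 94 were called lower (33.4% of all genes) and 31 higher (31.1%) under TMM. On the Sertoli cell scaling, which moves all genes of a library alike and took the median of all genes to -2.50, 66 were lower and 1 higher, beside 76.3% and 0.645% of all genes. Akap4 (log2 fold change -11.80 ± 0.14, adjusted p = 7.3e-13) and Akap3 (-10.71 ± 0.10, adjusted p = 2.4e-13), anchoring proteins of the sperm tail of which Akap4 is also an elongating spermatid marker here, fell under TMM. They had -14.35 and -13.26 on Sertoli cell markers, a direction that the shift of all genes nearly fixed in advance. Lhcgr and Fshr, the gonadotropin receptors of Leydig and Sertoli cells and markers of them here, were higher under TMM (3.47 ± 0.10 and 3.45 ± 0.13, adjusted p = 2.6e-10 and 1.5e-09). On the Sertoli cell scaling they kept that direction under the fold of 2 (0.92 and 0.90, adjusted p = 1.2e-05 and 8.9e-05). Fshr is one of the markers that set this scaling, so its value there depends in part on itself. In INSL3-KI at P23, 14 of 95 were lower (11.8% of all genes) and 11 higher (8.81%) under TMM. On the Sertoli cell scaling, with the median of all genes at -1.04, 10 were lower and none higher, beside 9.37% and 0.482% of all genes. In INSL3-KI at P40, 21 of 96 were lower (22.1% of all genes) and 28 higher (25.6%) under TMM. On the Sertoli cell scaling, with that median at -2.13, 63 were lower and none higher, beside 71.5% and 0.156% of all genes. Akap4 was at -8.62 ± 0.97 there (adjusted p = 0.00056, and -10.63 on Sertoli cell markers). Pde4d, a cAMP phosphodiesterase, was called higher there under TMM (2.98 ± 0.32, adjusted p = 0.00047) and not on the Sertoli cell scaling (0.68, adjusted p = 0.023).

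The genes whose mean log2(CPM + 1) over the 13 groups was most like that of an isoform are given as a description, since the points share tissues, tables and WT libraries. For Adcy5 they were Spata13, Ryr2 and Lmod1, with Pearson's r from 0.967 to 0.955 over 13 groups, and Lmod1 is itself one of the 7 smooth muscle markers. For Adcy10 they were Tmem232, Wdr60 and Slc30a3, led by 0.994. For Adcy4 they were Dll4, Tie1 and Arap3, led by 0.992, and for Adcy3 Lrfn4, Ptk7 and Dab2ip, led by 0.990 (r over 13 groups in each case). For Adcy1 they were Fbxl16, Nkd2 and Dchs1, led by 0.924. For Adcy6 they were Tie1, Caskin2 and Nucb1, led by 0.972, and for Adcy7 Axl, Rpp25 and Tle4, led by 0.970. For Adcy8 they were Ihh, Bhlhe22 and Dsc2, led by 0.928, and for Adcy9 Atp7a, Mark4 and Armh3, led by 0.949. These lists changed with the measure, either Spearman's rho over the same groups or Pearson's r over the 9 groups of the first table. Between 0 and 2 of the 3 genes of an isoform were named again. Over the 9 groups none was named again for Adcy5, Adcy6, Adcy8, Adcy9 or Adcy10.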

How the data were processed

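The use of strand in counting, the counting program and its annotation are not given in the sources used here. The authors aligned reads to GRCm38 with HISAT2, per the submitters' processing notes, and deposited them as raw gene counts and as FPKM (scaled for transcript length and depth) in 2 tables with 38822 and 58374 entries, joined on the 21561 Ensembl genes they share, which took 94.2 to 97.9% of the counts. The adenylyl cyclases and the gene lists were chosen with earlier results of these data known. Counts were tested with edgeR 4.0.16 in R 4.3.3 (quasi-likelihood, TMM, filterByExpr with a minimum count of 10 and a total of 15, two-sided, Benjamini-Hochberg adjustment over all genes tested), each comparison on its own libraries, and genes were called when the adjusted p was below 0.01 and levels differed by a factor of 2 or more, after the thresholds of the study, which used DESeq2. The SE is the log2 fold change divided by the square root of F. Levels were compared between genes by the authors' FPKM and between libraries by CPM, and replicates were separate biological samples per the labels. Alternatives were DESeq2 1.42.0, no filter, library size scaling, DESeq2 size factors, all groups of a tissue in 1 fit, a replicate block, limma 3.58.1 on log2(FPKM + 1) and log2(FPKM + 0.1), a threshold of 0.05 with no fold, leaving out each library, and scaling on Sertoli cell markers. Scripts were tested on simulated counts. No pair of replicates agreed within sampling noise.

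Named genes are the 10 isoforms, Insl3, Rxfp2, of the pathway list some of the up to 3 called genes per direction with the largest log2 fold changes, and for isoforms reaching 1 FPKM the 3 genes of highest Pearson correlation over 13 groups, among genes with 5 CPM in a group. Each library's depth limits values near 0, and the floor of 3 counts covers counting error only. The genes most like Adcy2 are not reported here.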

Additional observations from a re-analysis of the deposited data

Results flagged for a closer look

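In testis the INSL3-KI effect differed between P40 and P8 for 8 of the 10 isoforms, by edgeR's test of the difference of log2 fold changes, beside 45.6% of all genes called in the same test. The 4 groups lie in 1 table. Under TMM the difference was positive for Adcy7 (2.61 ± 0.39, adjusted p = 0.00026), Adcy4 (2.10 ± 0.42, adjusted p = 0.0015), Adcy5 (1.95 ± 0.37, adjusted p = 0.0011), Adcy2 (1.91 ± 0.35, adjusted p = 0.00094), Adcy9 (1.25 ± 0.27, adjusted p = 0.0025) and Adcy3 (1.16 ± 0.24, adjusted p = 0.0017), whereas on the Sertoli cell scaling Adcy7 had 0.08 and the values of the others were negative, as given with the processing. The difference was negative under both scalings for Adcy10 (-4.76 ± 1.0, adjusted p = 0.0019, and -7.12) and Adcy1 (-1.28 ± 0.35, adjusted p = 0.0089, and -3.75). The Sertoli cell scaling moved the median of all genes in this test to -2.54, so the negative sign of Adcy10 and Adcy1 there was nearly fixed in advance. Adcy2 had the called value at P8 (-2.20) and a P40 value near 0 under TMM (-0.20 ± 0.20), against -2.41 at P40 on the Sertoli cell scaling. The call of Adcy1 was lost in 9 of the 12 fits without 1 library, with adjusted p-values from 0.012 to 0.029, and Adcy3 fell under the fold of 2 without INSL3-KI replicate 2 at P8 (0.98).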

How the results depend on the processing

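Of 153 log2 fold changes of isoforms tested, 55 were called. Under the alternatives other than leaving out a library, 425 of 479 values of called isoforms kept their direction and call, 37 lost the call and 17 reversed, all on the Sertoli cell scaling, chosen after seeing the data. With 1 library left out, 326 of 378 kept the call, 52 lost it and none reversed. The cause of these changes was not tested. Depth limits Adcy8 and Adcy10 in gubernaculum and Adcy8 in testis, and 3 libraries a group limit all tests.

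The Sertoli cell scaling gave the other sign, as log2 fold changes, as follows. For INSL3-KI against WT at P23, Adcy6 had -0.0097. For INSL3-KO against WT at P23, Adcy3 had -2.23, Adcy4 -1.06, Adcy5 -0.66, Adcy7 -0.29 and Adcy9 -0.93. For INSL3-KI against INSL3-KO at P23, Adcy5 had 1.14. For INSL3-KI against WT at P40, Adcy3 had -1.76, Adcy4 -0.68, Adcy5 -0.55, Adcy6 -1.50, Adcy7 -0.12 and Adcy9 -0.27. For WT at P40 against P8, Adcy3 had 0.26, Adcy5 0.56, Adcy6 0.91 and Adcy9 1.82. For the INSL3-KI effect at P40 against P8, Adcy2 had -0.55, Adcy3 -1.34, Adcy4 -0.41, Adcy5 -0.58 and Adcy9 -1.34.

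Members called moved with the setting in these comparisons. In P8 gubernaculum, INSL3-KI against WT went from 2 to 4 with library size alone and to 6 at an adjusted p under 0.05 with no fold, and INSL3-KI against INSL3-KO from 5 to 8 at 0.05. In P23 gubernaculum, INSL3-KI against WT went from 1 to 4 with DESeq2, to 4 with all groups in 1 fit, to 2 with limma on either FPKM scale and to 2 at 0.05. In P8 testis at 0.05, INSL3-KI against WT went from 1 to 5 (2 on the Sertoli cell scaling), INSL3-KO against WT from 4 to 7 and INSL3-KI against INSL3-KO from 1 to 3. In P23 testis, INSL3-KI against WT went from 4 to 2 on the Sertoli cell scaling and to 7 at 0.05, and INSL3-KI against INSL3-KO from 2 to 1 with limma on log2(FPKM + 1), to 7 on the Sertoli cell scaling and to 5 at 0.05. WT gubernaculum at P23 against P8 went from 0 to 1 with DESeq2 and 2 at 0.05, WT testis at P40 against P8 from 7 to 3 on the Sertoli cell scaling, and gubernaculum against testis from 3 to 7 at 0.05. The INSL3-KI effect at P23 against P8 went from 0 to 1 with DESeq2, 1 with all groups in 1 fit and 1 at 0.05, and that at P40 against P8 in testis from 8 to 4 on the Sertoli cell scaling. Library size alone moved the median of all genes by 0.70 for INSL3-KI against WT at P40.

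The labels give replicate numbers and no pairing. Deviations of same-numbered libraries from their group means had correlations from -0.196 to 0.413, which cannot exclude a shared origin for some numbers. With the replicate block, 7 of the 55 calls were lost: Adcy2 in INSL3-KI at P23 in gubernaculum (-3.74, adjusted p = 0.018, which leaves 0 called) and at P8 in testis (adjusted p = 0.012, leaving 0), Adcy6 and Adcy7 in INSL3-KI testis at P23 (adjusted p = 0.013 and 0.012, leaving 2), Adcy4 in INSL3-KO at P23 (0.013) and INSL3-KI at P40 (0.026), and Adcy6 in WT testis with age (0.016).

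With each library left out in turn, the number called ranged from 2 to 3 for INSL3-KI against WT, 5 to 6 for INSL3-KO against WT and 5 to 6 for INSL3-KI against INSL3-KO in P8 gubernaculum, and was 1 throughout for INSL3-KI against WT at P23. In testis it ranged from 0 to 1, 4 to 6 and 1 to 1 for the same 3 comparisons at P8, from 0 to 5, 5 to 6 and 2 to 2 at P23, and from 3 to 6 for INSL3-KI against WT at P40. It ranged from 0 to 0 for WT gubernaculum with age, 6 to 8 for WT testis with age, 2 to 4 between tissues, 0 to 2 for the change of the INSL3-KI effect in gubernaculum and 7 to 8 in testis.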

Other observations

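In WT mice at P8 the pathway genes around the cyclases differed between the tissues. Of 96 pathway genes tested, 31 were called higher and 10 lower in gubernaculum than in testis, beside 14.1% and 14.3% of all genes, and of the 10 CREB target genes 8 were higher and none lower. Of the receptors, 2 were called lower and 5 higher in gubernaculum. Fshr (log2 fold change -7.85 ± 0.53, adjusted p = 2.5e-05) and Lhcgr (-5.91 ± 0.29, adjusted p = 6.3e-06) were the lower ones. Rxfp2 was among the higher (5.49 ± 0.48, adjusted p = 7.9e-05). Akap6, the anchor of protein kinase A in muscle, was higher too (6.76 ± 0.19, adjusted p = 6.2e-07).

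Other cell type markers bear on the same libraries. In P8 gubernaculum, macrophage markers had 3 of 5 called lower in INSL3-KI and none called in INSL3-KO, endothelial markers had none called in either mutant, Schwann cell markers had 1 of 5 called lower in INSL3-KI and none called in INSL3-KO, fibroblast markers had 1 of 6 lower in INSL3-KI and 1 in each direction in INSL3-KO, and brown adipocyte markers had 1 of 3 in each direction in INSL3-KI and 1 higher in INSL3-KO. In testis at P40, round spermatid markers had 5 of 6 called lower in INSL3-KI under TMM and 6 of 6 on the Sertoli cell scaling, with summed levels of 650 to 791 FPKM in WT and at most 57.0 in INSL3-KI. Spermatogonium markers had 3 of 6 called higher under TMM and 3 of 6 called lower on the Sertoli cell scaling. Of all genes at P40, 22.1% were called lower and 25.6% higher under TMM, and 71.5% lower and 0.156% higher on the Sertoli cell scaling.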
